A study of Mus musculus with 30 samples.

Results

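Genes of the fibroblast extracellular matrix and contractile apparatus, 33 in number, were followed through withdrawal and return of doxycycline in mouse embryonic stem cells whose Nanog depends on the drug. The list held 35 genes, chosen by name. A gene was measured where the array's platform table gave a transcript cluster, whose probes are read together as 1 transcript, with that symbol alone. This held for 33 of the 35, each with 1 cluster, out of 28815 clusters in all. Fbn1 had no such cluster and the cluster of Loxl2 also listed Gm21451, so both are not analysed here.

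The 30 arrays came from total RNA of 1 clone, NgR, labelled AINV15_Nanog_Rescue Clone. Its parent line expresses rtTA, the activator that switches on transgenes in the presence of doxycycline, and the cells were kept on primary mouse embryonic fibroblasts. The 10 groups held 3 arrays each. In the day 0 group doxycycline was present at 1 ug/ml and Nanog was expressed. The withdrawal groups were collected 1, 3 and 5 days after the drug was removed. On each of these days further cells were held for 12 h more, either with doxycycline (the pulse groups) or without it (the control groups). All 10 groups share the clone and the fibroblast feeders. No group of this design was kept on doxycycline over the days, so time in culture and loss of Nanog cannot be told apart. Doxycycline itself was removed and returned in the same groups, so its own effects cannot be told apart from those of Nanog either. Whether the replicates of a group were separate cultures is not in the labels, and the p-values therefore cover only the array-to-array spread, which may be technical.

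Fibroblasts build the fibrous matrix of connective tissue. Fibrillar collagens are assembled outside the cell, decorated by small leucine-rich proteoglycans, cross-linked by lysyl oxidases and trimmed by matrix metalloproteinases, whose activity is limited by TIMP proteins. Smooth muscle actin and its partners form the contractile bundles of myofibroblasts and smooth muscle, and their genes are classic targets of serum response factor (SRF), which binds CArG boxes. Pluripotent cells also make some of these proteins, fibronectin and vimentin among them, and a culture on feeders holds fibroblasts as well as stem cells.

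The members' promoters are shown first because Acta2 and Myl9, which moved in opposite directions on withdrawal, both hold a CArG-like element. RefSeq promoters on GRCm38.p6, 250 bases before to 50 after the gene start, were given for 21 of the 33 measured members, in 24 entries. The CArG box (a pair of C, a run of A or T, a pair of G) was found in 1.63% of all 32851 promoters on either strand, and among the members in Myl9 alone. The relaxed form, which allows 1 inner G or C and includes the strict form, was found in 9.98% of all promoters and in 5 members, Acta2, Col1a2, Col6a3, Myl9 and Timp3. The bases before the gene start of 3 of them follow, 5′ to 3′, with the relaxed CArG boxes in capitals. They are Acta2 (chr19:34255374-34255623, minus strand), which rose on withdrawal, Myl9 (chr2:156775214-156775463, plus strand), which fell, and Col1a2 (chr6:4505368-4505617, plus strand), the collagen with the largest rise.
Acta2: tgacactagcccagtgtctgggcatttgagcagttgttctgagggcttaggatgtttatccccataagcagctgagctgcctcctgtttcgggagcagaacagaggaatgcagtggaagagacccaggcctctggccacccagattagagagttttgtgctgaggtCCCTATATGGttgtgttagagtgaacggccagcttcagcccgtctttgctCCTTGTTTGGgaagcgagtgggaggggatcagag
Myl9: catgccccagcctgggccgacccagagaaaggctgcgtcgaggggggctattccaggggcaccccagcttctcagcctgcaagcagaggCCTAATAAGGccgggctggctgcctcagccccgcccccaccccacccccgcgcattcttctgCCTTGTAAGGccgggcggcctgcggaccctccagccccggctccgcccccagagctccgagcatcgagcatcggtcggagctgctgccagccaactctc
Col1a2: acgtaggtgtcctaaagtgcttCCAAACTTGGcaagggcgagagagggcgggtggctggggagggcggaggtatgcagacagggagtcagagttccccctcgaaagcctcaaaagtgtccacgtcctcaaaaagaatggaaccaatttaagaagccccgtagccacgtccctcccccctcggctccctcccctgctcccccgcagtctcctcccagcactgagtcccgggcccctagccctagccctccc
In Acta2 the boxes lay at -84 to -75 and -34 to -25 from the gene start, in Myl9 at -161 to -152 (the strict form) and -99 to -90, and in Col1a2 at -228 to -219. The promoters of Cnn1 and Tpm2 held neither form in this window, and Tagln had no entry. Of the other motifs searched, TATAAA on the gene strand was in 5 of the 21 members and 8.32% of all promoters, and CCAAT on either strand in 7 and 37.4%. The AP-1 motif TGANTCA was in 1 member, Col6a1, and 7.81% of all promoters. The TEAD motif CATTCC was in 4, Acta2, Col3a1, Col6a2 and Prrx1, and 14.7%. A match describes letters only and shows no binding.

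The deposited values are log2 signals made by the authors with RMA, which corrects background and equalizes the arrays. The medians of the arrays lay between 7.51 and 7.61 and their interquartile ranges between 2.39 and 2.94. The 4 widest arrays, day 5 control replicates 2 (2.94) and 3 (2.93), day 3 control replicate 2 (2.84) and day 1 control replicate 3 (2.76), were all in control groups. Nanog averaged 11.03 ± 0.02 (SD, n = 3) at day 0. After 1, 3 and 5 days of withdrawal it averaged 10.24 ± 0.08, 10.51 ± 0.05 and 9.85 ± 0.21, so its signal did not fall steadily. The pulse groups averaged 11.09 ± 0.03, 10.97 ± 0.07 and 10.84 ± 0.15 on days 1, 3 and 5, against 10.30 ± 0.05, 10.17 ± 0.05 and 10.07 ± 0.03 in their controls. Pou5f1 (Oct4), a marker of the labelled cell type, averaged 12.35 at day 0 and 11.05 at day 5 of withdrawal.

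Several genes that define fibroblasts were dim on these arrays. Clusters of 1035 olfactory receptor genes, which are not expected in these cells, served as a rough guide to background, although probes differ in their own background. The 95th percentile of their mean signal was 6.96. The mean over all 30 arrays lay under it for 9 members, Col5a2, Postn, Lox, Loxl1, Thbs2, S100a4, Dcn, Lum and Prrx1. Lum (lumican) stood at 4.70, above 29.8% of the olfactory clusters, and Dcn (decorin) at 6.25, above 82.9%. Of the 10 defining fibroblast genes, 4, namely Dcn, Lum, Postn and Prrx1 were among these 9. The summed linear signal of those 10 genes ranged from 1469 to 1580 at day 0, from 1609 to 1630 at day 1 of withdrawal, from 1696 to 1836 at day 3 and from 1946 to 2049 at day 5. These ranges did not overlap from one withdrawal day to the next, and the day 5 control (1860 to 1996) and pulse arrays (1934 to 2042) overlapped the day 5 withdrawal arrays. The mean log2 signal of the 10 genes did overlap from each of these days to the next. A further 39 measured fibroblast genes, none of them a member, summed to between 7034 and 7091 at day 0, 6602 and 6777 at day 1 of withdrawal, 6564 and 6807 at day 3 and 7068 and 7297 at day 5. By this sum, in which the brightest genes weigh most, the day 1 and day 3 arrays were all below day 0, and day 5 overlapped it. The mean log2 signal of the same 39 genes lay between 6.93 and 7.01 at day 0 and 6.96 and 6.97 at day 1. It lay between 6.97 and 7.02 at day 3 and 7.04 and 7.10 at day 5. By that measure days 1 and 3 overlapped day 0, and day 5 was above it. Fewer cells of a type and less RNA per cell cannot be told apart in such bulk samples. The part of the feeders in the results below was not tested.

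**Figure D1:**
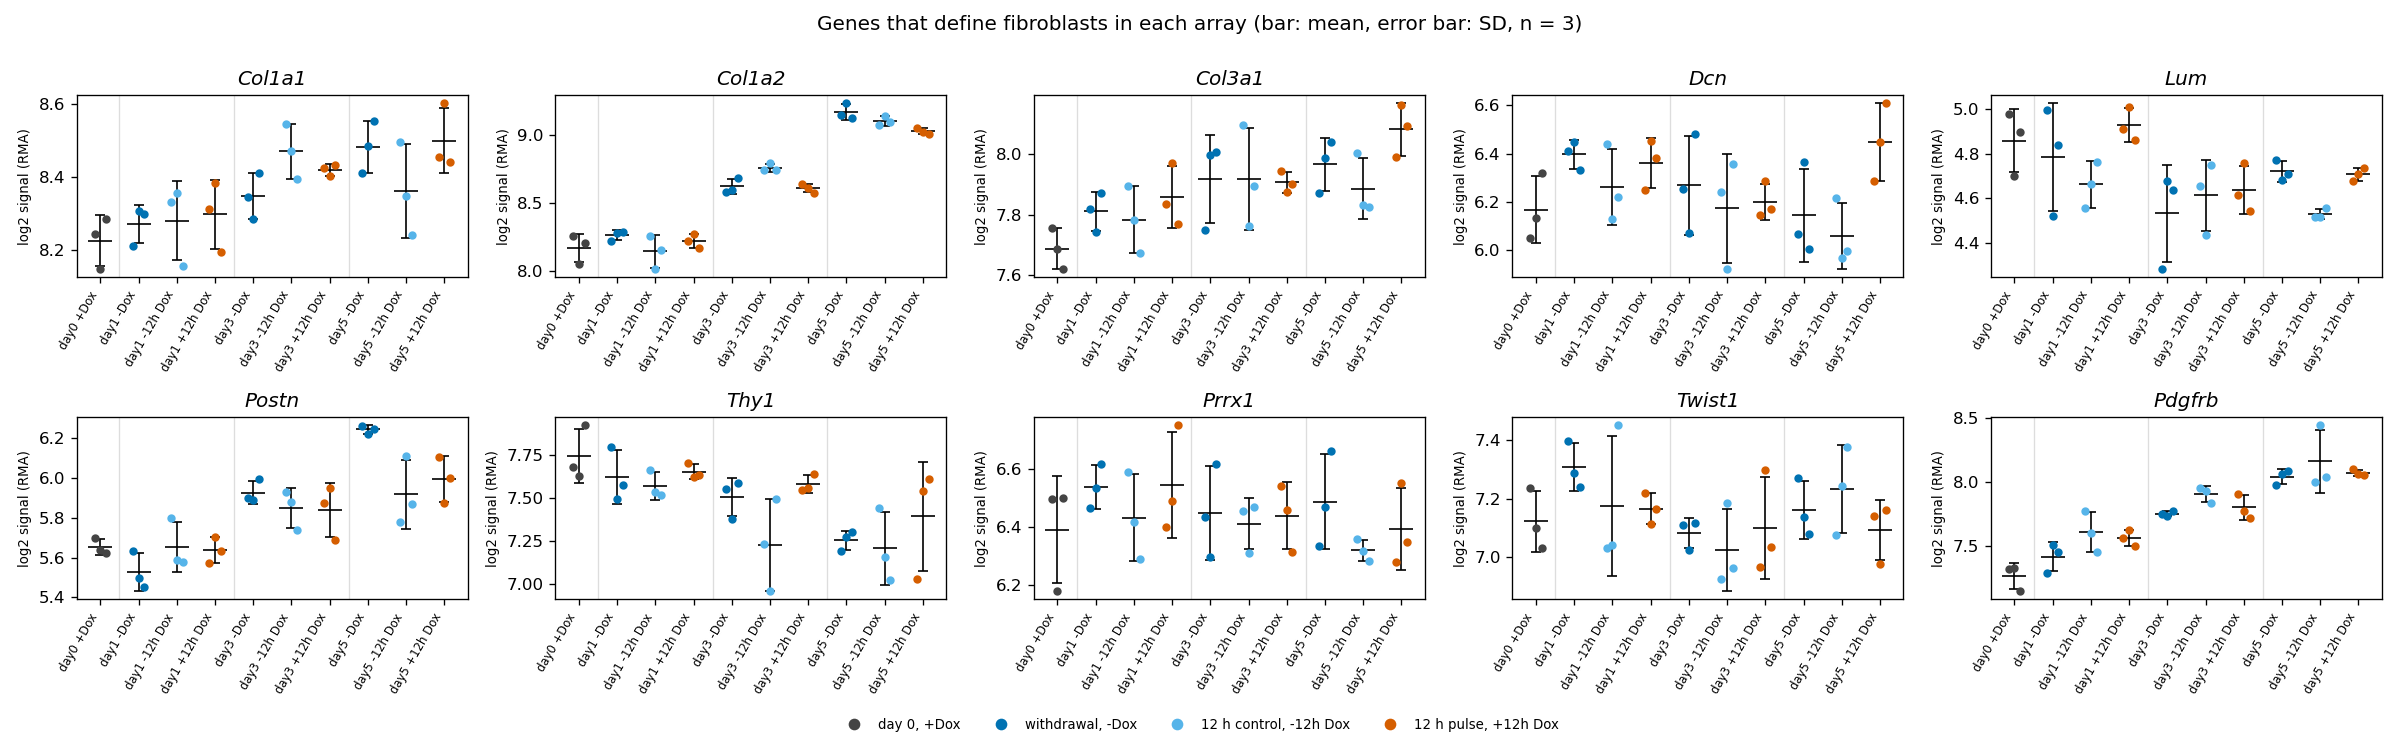
Log2 RMA signal of the 10 defining fibroblast genes in each of the 30 arrays, by group, with the mean as a bar and the SD (n = 3) as the error bar. Col1a2 and Pdgfrb climb from day 0 to day 5, Thy1 declines, and Dcn, Lum and Prrx1 show no ordered course and lie in the range of olfactory receptor clusters.

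Withdrawal was followed by rises in a subset of matrix and contractile genes. The number called grew over the days, as it did over all clusters. After 1 day 1 member was called higher and 3 lower at a Benjamini-Hochberg adjusted p under 0.05 in limma, 4 of 33 (12.1%), where 6.51% of the 23385 tested clusters were called, 3.49% higher and 3.02% lower. After 3 days 11 were higher and 4 lower (45.5%, against 33.8% of all clusters), and after 5 days 14 were higher and 4 lower (54.5%, against 42.5%). The median member changed by 0.09, 0.07 and 0.10 on the log2 scale, against 0.02, 0.02 and -0.01 for all clusters. By direction, 19.6% of all clusters were called higher and 14.3% lower after 3 days, and 23.8% and 18.8% after 5 days. These comparisons share the day 0 arrays, so they do not check each other. Centring each array on its own median turned the split over all clusters from 4580 higher and 3334 lower to 3270 and 4613 after 3 days, and from 5558 and 4387 to 4440 and 6119 after 5 days. The member splits became 9 higher and 5 lower, and 14 higher and 7 lower.

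**Figure D2:**
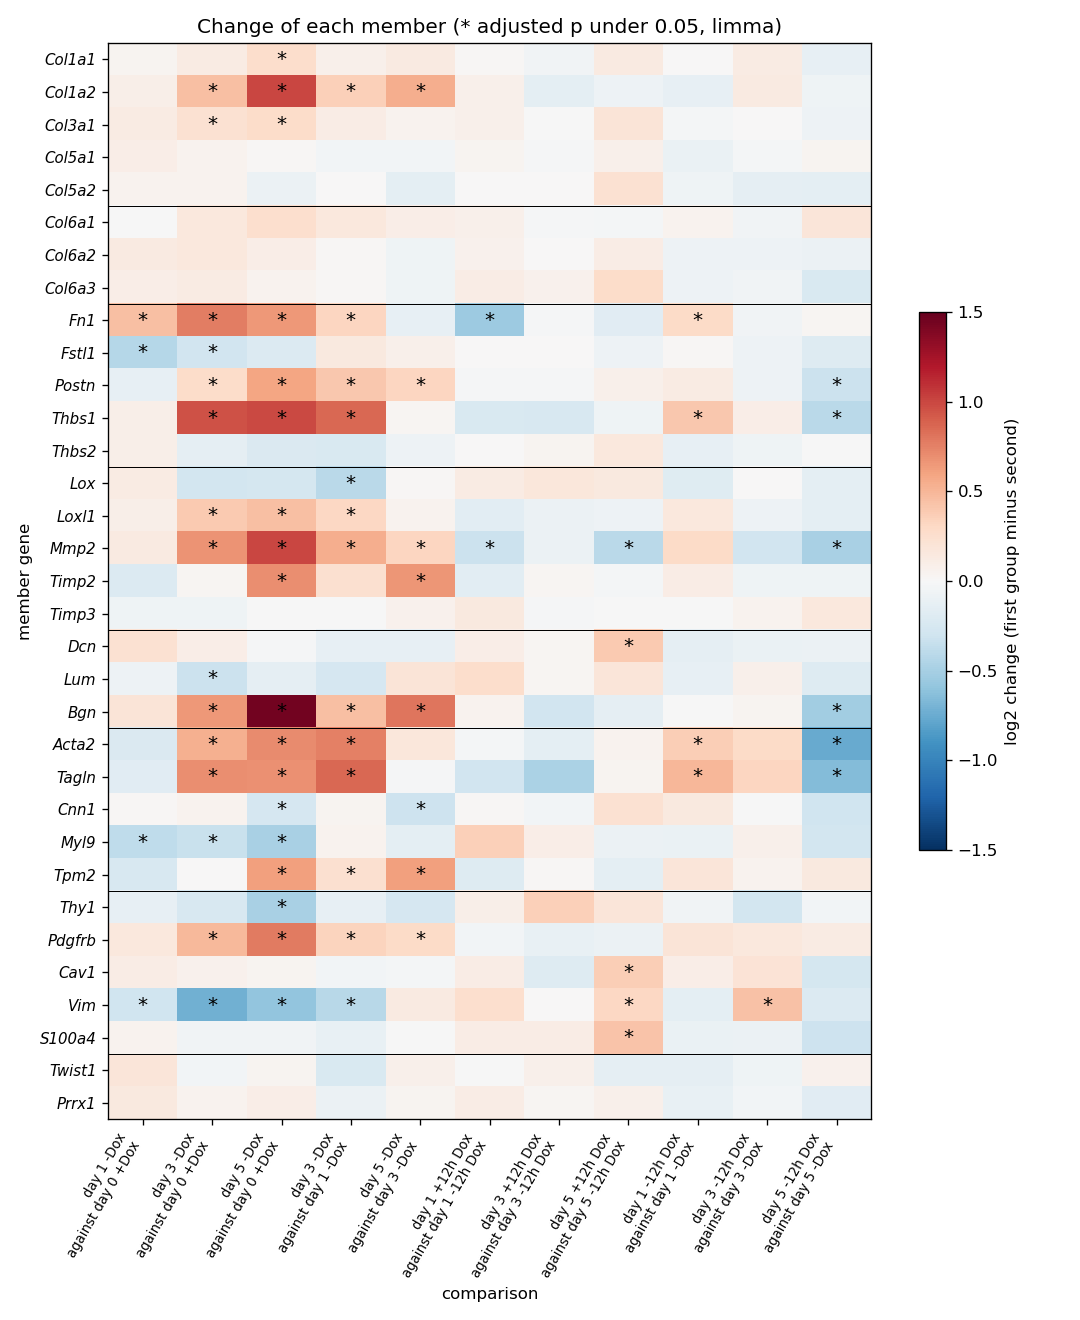
Log2 change of the 33 members (rows, by role) in the 11 comparisons (columns), with an asterisk where the adjusted p was under 0.05 in limma. The withdrawal columns for days 3 and 5 hold 15 and 18 asterisks, the pulse column for day 3 holds none, and the column of the day 5 control against day 5 withdrawal holds 6, all for lower signal.

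Among the fibrillar collagens, type I and type III chains rose and type V did not pass the test. Col1a2, the second chain of type I collagen, read 8.25, 8.05 and 8.20 at day 0, 8.58, 8.60 and 8.69 after 3 days and 9.15, 9.23 and 9.12 after 5 days. The 3 groups did not overlap. The change by day 5 was 1.00 (SE 0.06, adjusted p = 1.1e-12). Col1a1, its partner chain, read 8.24, 8.15 and 8.28 at day 0 and 8.41, 8.49 and 8.55 after 5 days, a rise of 0.26 (SE 0.07, adjusted p = 0.00534). Every day 5 array was above every day 0 array, but the Col1a1 call was lost on quantile normalization (adjusted p = 0.25). The difference between the changes of the type I chains was not tested. Col3a1 rose by 0.28 (SE 0.09, adjusted p = 0.00974) from 7.75, 7.68 and 7.62 to 7.87, 7.99 and 8.04. Without day 5 withdrawal replicate 3 its adjusted p was 0.0506, and on quantile normalization it was 0.102. After 3 days Col3a1 had risen by 0.23 (adjusted p = 0.0393) with overlapping arrays, and 4 of the 6 arrays each ended that call when left out (adjusted p up to 0.155). Col5a1 and Col5a2, the chains that regulate fibril diameter, changed by 0.01 (adjusted p = 0.909) and -0.08 (adjusted p = 0.542) by day 5.

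Collagen VI, which forms beaded filaments next to cells, was not called in any comparison of the reported fit. By day 5 Col6a1 had changed by 0.26 (SE 0.11, adjusted p = 0.0569), Col6a2 by 0.10 (adjusted p = 0.494) and Col6a3 by 0.06 (adjusted p = 0.711). Of 17 alternative fits, 7 called Col6a1 higher by day 5 (adjusted p down to 0.00262). With array weights Col6a2 and Col6a3 were higher with the day 5 pulse (adjusted p = 0.0439 and 0.000537). In that fit Col6a3 was lower in the day 5 control than in the withdrawal group (adjusted p = 0.00787). Col6a1 read 7.41, 7.56 and 7.64 at day 0 and 7.74, 7.88 and 7.76 at day 5, without overlap. The day 5 control arrays of Col6a1 read 7.95, 7.90 and 8.07, and the day 5 pulse arrays lay between 7.73 and 8.11.

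Fibronectin and thrombospondin 1 rose most among the glycoproteins, on different days. Fn1, which links collagen to integrins, was at 10.55, 10.38 and 10.35 at day 0 and already at 10.87, 10.88 and 10.91 after 1 day, a rise of 0.46 (SE 0.07, 1.37-fold, adjusted p = 0.000174). It reached 11.23, 11.23 and 11.14 after 3 days, 0.77 above day 0 (SE 0.07, adjusted p = 6.3e-09), and stood at 11.05, 11.03 and 11.16 after 5 days. Thbs1, a matricellular protein that can activate latent TGF-beta, was not higher by the test after 1 day (8.74, 8.58 and 8.44 at day 0, and 8.64, 8.74 and 8.66). It then read 9.80, 9.58 and 9.26 after 3 days and 9.46, 9.61 and 9.66 after 5 days. The changes were 0.96 (SE 0.11, adjusted p = 1.99e-07) and 0.99 (SE 0.11, adjusted p = 4.64e-08), with no overlap with day 0. Postn (periostin, a collagen-binding protein) rose by 0.59 (SE 0.09, adjusted p = 2.39e-06) from 5.70, 5.64 and 5.62 to 6.26, 6.22 and 6.24, all of them below the 95th percentile of the olfactory clusters. Fstl1, a secreted glycoprotein of the SPARC family, moved the other way. Its arrays read 9.68, 9.80 and 9.64 at day 0 and 9.37, 9.17 and 9.28 after 1 day, a change of -0.43 (SE 0.09, adjusted p = 0.00347). It was at -0.29 after 3 days (adjusted p = 0.0164), a call that leaving out day 0 replicate 2, day 3 withdrawal replicate 2 or day 3 withdrawal replicate 3 ended (adjusted p up to 0.0951), and at -0.21 after 5 days (adjusted p = 0.0732). Thbs2 changed by -0.21 by day 5 (adjusted p = 0.0607).

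**Figure D3:**
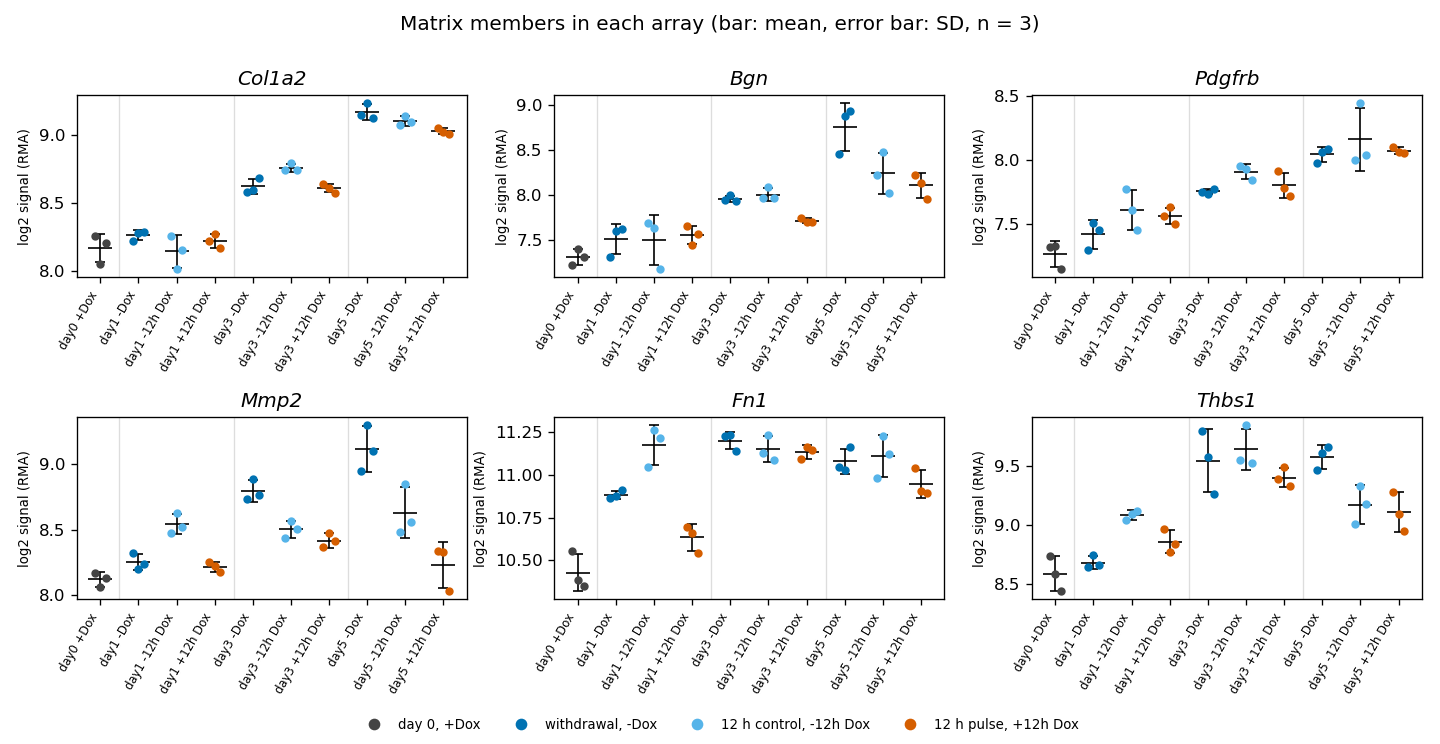
Log2 RMA signal of 6 matrix and surface members in each array, by group, with the mean as a bar and the SD (n = 3) as the error bar. Fn1 is already higher after 1 day of withdrawal, Thbs1 rises between day 1 and day 3, Col1a2, Bgn and Pdgfrb are highest on day 5, and Mmp2 is lower in both day 5 groups of the further 12 h than in the day 5 withdrawal group.

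Of the enzymes and inhibitors of matrix turnover, 3 of 5 rose by day 5, where 23.8% of all clusters were called higher. Mmp2 (gelatinase A) read 8.17, 8.06 and 8.13 at day 0, 8.73, 8.89 and 8.76 after 3 days and 8.95, 9.30 and 9.10 after 5 days. These groups did not overlap, and the day 5 change was 1.00 (SE 0.09, adjusted p = 1.05e-09). Timp2, which both inhibits and helps to activate Mmp2 protein, stayed at 7.18, 7.10 and 7.15 after 3 days against at most 7.18 at day 0, and then read 7.76, 7.82 and 7.84. Its day 5 change was 0.69 (SE 0.09, adjusted p = 2.81e-07). Loxl1, a lysyl oxidase-like enzyme of elastic fibres, rose by 0.40 after 3 days (adjusted p = 0.000188) and 0.45 after 5 days (SE 0.08, adjusted p = 2.07e-05). Lox, the main collagen cross-linker, changed by -0.26 by day 5 (adjusted p = 0.109), and Timp3 by less than 0.01 in size (adjusted p = 0.971).

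Of the small leucine-rich proteoglycans, biglycan rose, while decorin and lumican were not called by day 5. Bgn read 7.22, 7.40 and 7.31 at day 0, 7.95, 7.99 and 7.93 after 3 days and 8.45, 8.88 and 8.94 after 5 days. The rise of 1.45 by day 5 (SE 0.13, 2.73-fold, adjusted p = 4.01e-10) was the largest of any member in the 11 comparisons of groups. Dcn changed by -0.02 (adjusted p = 0.903) and Lum by -0.14 (adjusted p = 0.32) by day 5. Lum was called lower after 3 days (-0.33, adjusted p = 0.018), at signals between 4.28 and 4.98 that lie within the olfactory range. Leaving out day 0 replicate 1, day 0 replicate 3 or day 3 withdrawal replicate 1 ended that call (adjusted p up to 0.179).

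The contractile genes split. Acta2 (smooth muscle actin) read 10.72, 10.58 and 10.63 at day 0, 10.42, 10.56 and 10.29 after 1 day, 11.29, 11.22 and 11.03 after 3 days and 11.25, 11.40 and 11.41 after 5 days. All day 1 arrays were below all day 0 arrays, although this drop of 0.22 was not called, and all day 3 and day 5 arrays were above them. The changes were 0.54 by day 3 (SE 0.10, adjusted p = 0.000144) and 0.71 by day 5 (SE 0.10, adjusted p = 1.95e-06). Tagln (transgelin, an actin-binding protein of smooth muscle) followed the same course, at 9.38, 9.31 and 9.30, then 8.99, 9.30 and 9.19, then 10.17, 10.06 and 9.84, then 9.73, 10.05 and 10.26. It was 0.69 higher by day 3 (SE 0.14, adjusted p = 0.00027) and 0.68 higher by day 5 (SE 0.14, adjusted p = 0.000213). Tpm2 (beta-tropomyosin) rose late, from 8.37, 8.26 and 8.37 at day 3 to 9.01, 8.95 and 8.89 at day 5, which was 0.62 above day 0 (SE 0.08, adjusted p = 5.38e-07).

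Myl9, the regulatory light chain of smooth muscle myosin, fell. It read between 7.95 and 8.03 at day 0, 7.67, 7.66 and 7.51 after 1 day, 7.81, 7.64 and 7.53 after 3 days and 7.48, 7.52 and 7.53 after 5 days. No withdrawal array reached the day 0 range, and the day 5 change was -0.48 (SE 0.11, adjusted p = 0.000524). The day 1 change of -0.38 (adjusted p = 0.0277) lost its call without any 1 of the 3 day 0 arrays or without day 1 withdrawal replicate 2 or 3 (adjusted p up to 0.144). The day 3 change of -0.33 (adjusted p = 0.0167) lost it without day 0 replicate 3 or day 3 withdrawal replicate 2 or 3 (adjusted p up to 0.0856). Cnn1 (calponin, which restrains actomyosin) changed by -0.25 by day 5 (adjusted p = 0.0411). Its arrays overlapped day 0, and 5 of the 6 arrays, all but day 5 withdrawal replicate 3, each ended the call when left out (adjusted p up to 0.324).

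**Figure D4:**
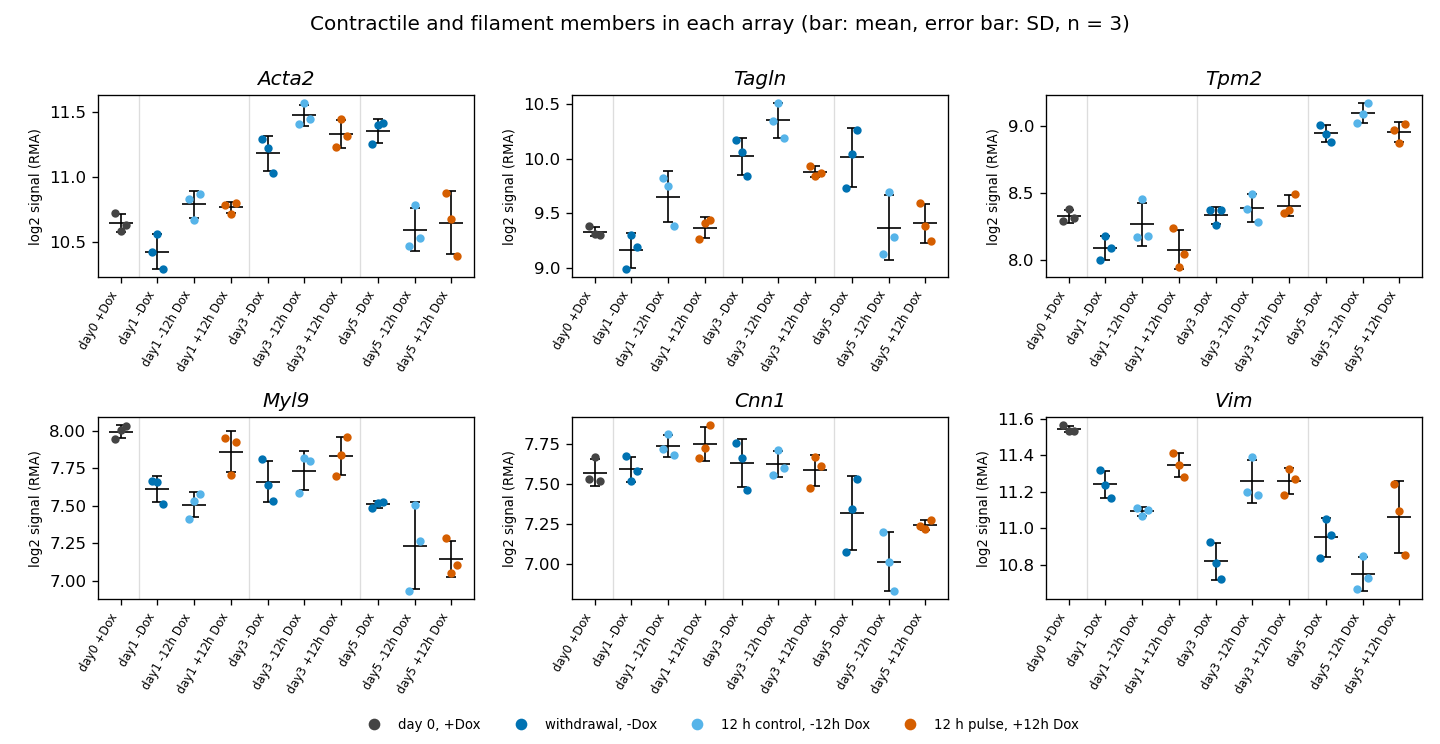
Log2 RMA signal of the 5 contractile members and Vim in each array, by group, with the mean as a bar and the SD (n = 3) as the error bar. Acta2 and Tagln dip on day 1, are high on day 3 and are lower in the day 5 control and pulse groups than in the day 5 withdrawal group, whereas Tpm2 is high in all 3 day 5 groups and Myl9 declines.

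Surface and filament genes changed in both directions. Pdgfrb, the PDGF receptor of mesenchymal cells, read 7.32, 7.33 and 7.14 at day 0, 7.75, 7.74 and 7.77 after 3 days and 7.98, 8.07 and 8.09 after 5 days, a rise of 0.78 (SE 0.09, 1.72-fold, adjusted p = 9.42e-08). Vim (vimentin, the intermediate filament of mesenchymal cells) fell from 11.56, 11.53 and 11.53 to 11.32, 11.24 and 11.16 after 1 day and 10.92, 10.81 and 10.72 after 3 days, with 10.83, 11.05 and 10.96 after 5 days. Its changes were -0.30 (adjusted p = 0.0252), -0.73 (SE 0.08, adjusted p = 1.43e-07) and -0.59 (SE 0.08, adjusted p = 1.45e-06). The day 1 call for Vim, like that for Myl9, was lost without any 1 of those same 5 arrays (adjusted p up to 0.132), so the day 1 count was then 2, Fn1 and Fstl1. Thy1, a surface protein used to mark fibroblasts, fell by 0.49 by day 5 (SE 0.13, adjusted p = 0.00301), from 7.68, 7.63 and 7.92 to 7.19, 7.27 and 7.30. Cav1 (caveolin 1, of caveolae) and S100a4 (a calcium-binding protein used as a fibroblast marker) changed by 0.04 (adjusted p = 0.757) and -0.06 (adjusted p = 0.708). The mesenchymal transcription factors Twist1 and Prrx1 were not called in any comparison of the reported fit, with day 5 changes of 0.04 (adjusted p = 0.796) and 0.10 (adjusted p = 0.514).

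Step by step, the rises came at different times. From day 1 to day 3, 11 members rose and 2 fell (39.4% of 33, against 22.9% of all clusters, 13.2% higher and 9.77% lower). From day 3 to day 5, 7 rose and 1 fell (24.2%, against 12.3% of all clusters, 7.59% higher and 4.75% lower). Each step shares its arrays with the comparisons against day 0. Acta2 (0.76, SE 0.10), Tagln (0.86, SE 0.14) and Thbs1 (0.87, SE 0.11) made their rise between day 1 and day 3, and their changes from day 3 to day 5 were not called. Timp2 (0.66, SE 0.09, adjusted p = 6.65e-06) and Tpm2 (0.61, SE 0.08, adjusted p = 6.65e-06) rose from day 3 to day 5. Col1a2 rose in both steps, by 0.36 and 0.54, and Bgn by 0.45 and 0.80. Postn, Mmp2 and Pdgfrb were also called in both, with later steps of 0.32, 0.32 and 0.29. Lox was lower at day 3 than at day 1 (-0.40, adjusted p = 0.0246), a call lost without day 1 withdrawal replicate 1 or 3 or day 3 withdrawal replicate 2 (adjusted p up to 0.182). Without day 3 withdrawal replicate 1 the count for the later step was 4, and without day 3 withdrawal replicate 2 or day 5 withdrawal replicate 2 it was 5. Among its calls, Postn, Mmp2, Cnn1 and Pdgfrb were each lost on leaving out some array (adjusted p up to 0.0555, 0.155, 0.299 and 0.128). In the earlier step Bgn and Pdgfrb were lost without day 1 withdrawal replicate 1 (adjusted p = 0.0813 and 0.0642) and Loxl1 without day 1 withdrawal replicate 3 (0.0576). Tpm2, 0.25 higher in that step, was lost in 4 of 6 cases (adjusted p up to 0.146). Median centring changed the all-cluster split of the earlier step from 3077 higher and 2285 lower to 2315 and 3142, and the member split to 10 and 4.

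The 12 h pulse asked how the members answered when doxycycline, and with it Nanog, returned. Pulse and withdrawal comparisons of a day share no arrays. On day 1 no member was called higher and 2 were called lower (6.06% of 33, against 3.75% of all clusters, 0.547% higher and 3.20% lower). Fn1 read 10.70, 10.66 and 10.55 with the pulse and 11.05, 11.27 and 11.22 in the control, a difference of -0.54 (SE 0.07, 1.46-fold, adjusted p = 9.53e-05) without overlap. The pulse arrays were below all day 1 withdrawal arrays of Fn1. It was the only member called in opposite directions by withdrawal and pulse on day 1, and the pulse call was kept without any 1 array (adjusted p up to 0.00154). Mmp2 read 8.25, 8.22 and 8.18 with the pulse and 8.48, 8.63 and 8.52 in the control, -0.32 (adjusted p = 0.0448), and lost its call without any 1 of the 6 arrays (adjusted p up to 0.204), leaving a count of 1. Myl9 (0.35, adjusted p = 0.064) and Vim (0.25, adjusted p = 0.0953) were above the control in every pulse array without passing the test.

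On day 3 no member passed the limma test in the pulse comparison, and 9 of all clusters did (0.0385%, with 0.00428% higher and 0.0342% lower). At an unadjusted p under 0.05 there were 5 members, and 14.6% of all clusters. With array weights 1 member was called. The largest difference was in Tagln, at 9.94, 9.84 and 9.87 with the pulse and 10.35, 10.51 and 10.19 in the control (-0.47, SE 0.14, adjusted p = 0.166), without overlap. Fn1 differed by -0.02 (SE 0.07, adjusted p = 0.94) and Mmp2 by -0.09 (SE 0.09, adjusted p = 0.695).

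On day 5 the pulse comparison called 4 members higher and 1 lower (15.2% of 33, against 12.2% of all clusters, 5.13% higher and 7.10% lower). Mmp2 read 8.34, 8.33 and 8.03 with the pulse, below the control at 8.49, 8.85 and 8.56, a difference of -0.40 (SE 0.09, adjusted p = 0.00843). Vim was higher with the pulse, at 11.24, 11.09 and 10.85 against 10.67, 10.85 and 10.73 (0.31, SE 0.08, adjusted p = 0.0185). Both had moved the other way on withdrawal. S100a4 (0.43, adjusted p = 0.0131), Dcn (0.39, adjusted p = 0.0351) and Cav1 (0.37, adjusted p = 0.0162) were also higher, and had not changed by the test on withdrawal. The interquartile ranges differed within both groups, at 2.52, 2.94 and 2.93 in the control arrays and 2.71, 2.44 and 2.43 in the pulse arrays. Whether they caused the calls was not tested. A check added after seeing the data left out the 4 widest arrays, which leaves 1 day 5 control array. The changes were then -0.25 for Mmp2, 0.40 for Vim, 0.22 for S100a4, 0.23 for Dcn and 0.46 for Cav1. With 1 control array these values do not show that the calls were kept. Without control replicate 1 the count was 11, without control replicate 2 it was 2, without control replicate 3 or pulse replicate 2 it was 1, and without pulse replicate 3 it was 2. Each of the 5 calls was lost on leaving out at least 2 of the arrays, with adjusted p up to 0.0862 for Mmp2, 0.089 for Vim, 0.0979 for S100a4, 0.175 for Dcn and 0.0842 for Cav1. With the interquartile range of each array as a covariate the count was 2. Vim (0.42, adjusted p = 0.00729) and Cav1 (0.44, adjusted p = 0.0211) kept their calls in that fit, and Mmp2 (adjusted p = 0.0814), S100a4 (adjusted p = 0.184) and Dcn (adjusted p = 0.475) lost theirs. The collagens and the contractile members were not called in any of the pulse comparisons of the reported fit. With array weights the day 5 pulse called 15 members, Fn1 and Mmp2 lower and the rest higher. Among those higher were Col1a1, Col3a1, Col5a1, Col5a2 (adjusted p = 0.000721), Col6a2, Col6a3 (adjusted p = 0.000537) and Cnn1 (adjusted p = 0.00866).

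The differences between pulse effects were tested directly. Day 3 against day 1 and day 5 against day 1 called no member in limma (0.00855% and 0.111% of all clusters were called), with 4 and 3 members at an unadjusted p under 0.05. With array weights 2 and 7 members were called. Day 5 against day 3 called Cav1 (0.56, SE 0.14, adjusted p = 0.0453), where 0.936% of all clusters were called. Of its 12 arrays, 10 each ended that call when left out (adjusted p up to 0.156). For Fn1 the day 3 effect minus the day 1 effect was 0.53 (SE 0.10, adjusted p = 0.0871) and the day 5 effect minus the day 1 effect was 0.38 (SE 0.10, adjusted p = 0.138). Both Fn1 differences passed the limma test in some alternatives. For day 3 against day 1 the adjusted p was 0.0123 with the interquartile range as a covariate, 0.021 after quantile normalization and 0.00036 with array weights. For day 5 against day 1 it was 0.0127, 0.0303 and 0.0165 in the same 3 fits.

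The further 12 h without doxycycline compared each control group with the withdrawal group of its day. On day 1, 4 members were higher in the control and none lower (12.1%, against 6.25% of all clusters, 5.02% higher and 1.23% lower). They were Fn1 (0.29, adjusted p = 0.0182), Thbs1 (0.40, adjusted p = 0.0318), Acta2 (0.36, adjusted p = 0.0319) and Tagln (0.49, adjusted p = 0.0326). Thbs1 read 9.04, 9.09 and 9.12 in the control, above all day 1 withdrawal arrays. Acta2 read 10.83, 10.67 and 10.87, also above them. None of these calls was kept throughout. Centring each array on its median ended all 4, and so did leaving out day 1 withdrawal replicate 1. The count was 1 without day 1 withdrawal replicate 3, control replicate 2 or control replicate 3, and 2 without control replicate 1. On day 3 the control differed in Vim alone (3.03%, against 1.69% of all clusters, 1.29% higher and 0.402% lower), at 11.20, 11.39 and 11.18 against 10.92, 10.81 and 10.72 (0.44, SE 0.08, adjusted p = 0.00376). That call was lost without control replicate 2 (adjusted p = 0.054), an array among the 4 widest.

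On day 5 the further 12 h went with lower signal of 6 genes that had risen on withdrawal. In the control 6 members were lower than in the withdrawal group and none higher (18.2%, against 3.31% of all clusters, 2.32% higher and 0.984% lower). The median member differed by -0.14, and the median of all clusters by -0.02. All 6, Acta2, Tagln, Thbs1, Mmp2, Bgn and Postn, were called higher at day 5 of withdrawal against day 0, a comparison that uses the same 3 withdrawal arrays. Acta2 read 10.47, 10.78 and 10.53 in the control against 11.25, 11.40 and 11.41, a difference of -0.76 (SE 0.10, 1.69-fold, adjusted p = 8.79e-05). The groups did not overlap, and the control arrays spanned those of day 0. Tagln read 9.12, 9.70 and 9.28 in the control against 9.73, 10.05 and 10.26 (-0.65, SE 0.14, adjusted p = 0.00944). Mmp2 differed by -0.49 (SE 0.09, adjusted p = 0.00336), Bgn by -0.52 with overlapping arrays (SE 0.13, adjusted p = 0.021), Thbs1 by -0.41 (adjusted p = 0.0446) and Postn by -0.32 (adjusted p = 0.0341).

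The day 5 pulse arrays were also below the same 3 withdrawal arrays, so the comparisons of pulse and control with them do not check each other. They read 10.87, 10.68 and 10.39 for Acta2, 9.60, 9.38 and 9.24 for Tagln, 9.28, 9.09 and 8.95 for Thbs1 and 8.22, 8.14 and 7.95 for Bgn. Every one of these was below every day 5 withdrawal array of the same gene, and none of these 4 genes differed by the test between pulse and control. Col1a2 (9.07, 9.14 and 9.10 in the control, and 9.05, 9.02 and 9.01 with the pulse), Pdgfrb, Timp2 and Tpm2, which had also risen on withdrawal, were not called in this comparison. Acta2 and Mmp2 kept their calls without any 1 array (adjusted p up to 0.00184 and 0.0427). Tagln, Bgn, Thbs1 and Postn each lost theirs without some array (adjusted p up to 0.084, 0.191, 0.185 and 0.182). The count was 3 without day 5 withdrawal replicate 2, and 2 without day 5 withdrawal replicate 3 or control replicate 3. With the interquartile range of each array as a covariate 9 members were lower and none higher. Besides the genes called in the reported fit, they included Fstl1, Vim and Myl9, which had not been called higher on withdrawal. Leaving out the 4 widest arrays leaves 1 day 5 control array, so the values that follow do not show that the calls were kept. The changes were then -0.89 for Acta2, -0.89 for Tagln, -0.63 for Mmp2, -0.57 for Thbs1, -0.54 for Bgn and -0.47 for Postn. Myl9, which had fallen on withdrawal, changed by -0.58. In the reported fit 1 of the 10 defining fibroblast genes was lower (Postn) and none higher, with a median change of -0.08 against -0.02 for all clusters. The part of these 10 genes in the result was not tested.

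Genes around the members were counted from pathway lists written with earlier results of these data known (42.5% of all clusters were called by then, 23.8% higher and 18.8% lower). Of 34 measured genes of the SRF, MRTF and YAP pathway, which couples actin tension to transcription, 21 were higher and 3 lower after 5 days, with a median change of 0.31. Cald1 (caldesmon, 1.51, SE 0.08), Amotl2 (1.30, SE 0.08) and Tpm1 (tropomyosin 1, 1.20, SE 0.06) rose most, and Egr1 (-0.51), Srf itself (-0.39) and Myl6 (-0.23) fell. With the day 1 pulse 5 of the 34 were lower and none higher, where 3.20% of all clusters were lower and 0.547% higher. Ccn1 was among them (-0.62, SE 0.10, adjusted p = 0.000588). The day 1 control had 9 higher and 1 lower than the withdrawal group, where 5.02% of all clusters were higher and 1.23% lower. On day 5 Ccn1 (-0.42, adjusted p = 0.0183) and Ankrd1 (-0.55, adjusted p = 0.00533) were lower in the control than in the withdrawal group. They were the only 2 of the 34 called, and the median of the list differed by 0.04, against -0.02 for all clusters. None of the 34 was higher, and 0.984% of all clusters were lower and 2.32% higher. Ccn1 and Ankrd1 were chosen for naming after their values were seen.

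Of 23 TGF-beta pathway genes, 9 were higher and 5 lower after 5 days (median 0.03). Smad3, a signal transducer, rose by 0.87 (SE 0.07), Ccn2, a matricellular target, by 0.63 (SE 0.08) and the co-receptor Tgfbr3 by 0.60 (SE 0.08). The inhibitory Smad7 (-0.77), the corepressor Tgif1 (-0.60) and the co-receptor Eng (-0.50) fell. With the day 1 pulse Smad3 (-0.41), Ccn2 (-0.58), Ski (-0.35) and Skil (-0.31) were lower and none of the 23 higher. The median of the 23 differed by -0.07, against 0.01 for all clusters. A link of these 4 genes to the lower Fn1 was not tested. Of all clusters 3.20% were lower and 0.547% higher in that comparison.

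Of 23 measured enzymes and helpers of collagen processing, 14 were higher and 3 lower after 5 days, with a median change of 0.53. P4ha2 (1.33, SE 0.10) and P4ha1 (1.22, SE 0.09), catalytic subunits of collagen prolyl hydroxylase, and Plod2, a lysyl hydroxylase (0.91, SE 0.11), rose most. Pcolce2 (-2.12, SE 0.09) and Pcolce (-1.56, SE 0.09), which enhance the cleavage of procollagen, fell, as did P3h1 (-0.21). Among 23 matrix receptors, 13 were higher and 3 lower (median 0.34), led by Sdc4 (1.42), Itgav (1.20) and Ilk (1.14), with Itga1 (-1.02), Itga9 (-0.75) and Ddr2 (-0.37) lower. All 12 basement membrane genes were called, 11 higher and 1 lower (median 0.78), with Sparc (1.13, SE 0.08), Agrn (0.97, SE 0.10) and Col4a2 (0.94, SE 0.09) highest and Lama1 (-0.31) lower.

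Marker lists of cell types that could carry these genes were counted at day 5 against the same 42.5% of all clusters called, 23.8% higher and 18.8% lower. Of the 39 further fibroblast genes, 17 of which lay under the olfactory 95th percentile, 9 were higher and 3 lower (median 0.10). Igfbp4 (1.74), Cxcl12 (0.91) and Ccdc80 (0.71) rose most, and Pcolce (-1.56), Sfrp1 (-0.64) and Ddr2 (-0.37) fell. The 15 trophoblast genes had 9 higher and none lower, and their summed signal went from between 4427 and 4583 to between 16034 and 16991. The 18 genes of primitive and parietal endoderm had 9 higher and 1 lower, with sums from 2728 to 2878 and then 4331 to 4552. Of 12 smooth and cardiac muscle genes 3 were higher, Des (1.20), Lmod1 (0.39) and Smtn (0.23), and 2 lower, Myl7 (-1.05) and Actc1 (-1.05), with overlapping sums (2515 to 2585, then 2375 to 2661). The 12 genes of the epithelial-mesenchymal transition list, which holds markers of both states, had 6 higher and 1 lower. Primitive streak and mesoderm genes had 3 higher and 2 lower of 19. The 10 genes of endothelium and blood had 2 higher and 3 lower, the 8 neural genes 1 higher and 7 lower, and the 11 pluripotency genes 10 lower and none higher. The part of any of these cell types in the members' changes was not tested.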

How the data were processed

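Total RNA of 30 samples (10 groups of 3) was measured on the Mouse Gene 1.0 ST array of Affymetrix. The authors deposited log2 signals per transcript cluster, which per the submitters' processing notes were computed by RMA using Affymetrix Expression Console. Software versions, annotation release and genome build are not given in the sources used here. RMA forces similar distributions on the arrays, so a shift common to most genes would be removed. Arrays have no read depth, and their number limits the precision.

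Of 28815 clusters, the platform table gave 21780 with 1 gene symbol, 1605 with several and 5430 with none. The 23385 with a symbol were tested. A single limma model (version 3.58.1, R 4.3.3) covered the 30 arrays, with a mean for each of the 10 groups and no further term. P-values were adjusted by Benjamini-Hochberg over the 23385 clusters, and a call needed an adjusted p under 0.05. Replicate files were compared, and 0 pairs held identical values. The fit was tested on simulated data. Every measured member was named. From other lists the rule named up to 3 called genes with the largest rise and up to 3 with the largest fall at day 5 of withdrawal. Ccn1, Ankrd1, Ski and Skil were chosen after their values were seen. The members, lists and tests were chosen with earlier results of these data known. Promoters came from RefSeq (GRCm38.p6). The alternatives were other eBayes settings, array weights, fits on only the groups compared, other scalings and filters, the interquartile range as a covariate, a replicate block, a 1.5-fold minimum and leaving out each array.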

Additional observations from a re-analysis of the deposited data

Results flagged for a closer look

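Cav1, the gene of caveolin 1, was the only member whose answer to the 12 h pulse differed between days by the test in the reported fit. The day 5 effect minus the day 3 effect was 0.56 on the log2 scale (SE 0.14, adjusted p = 0.0453 in limma). That call was lost on leaving out any 1 of 10 of its 12 arrays. It was also lost with median centring (adjusted p = 0.0685), quantile normalization (0.0781) and the replicate block (0.0547). Other members, Fn1 among them, were called for a pulse difference in some alternatives. On day 5 its arrays read 7.32, 7.29 and 7.11 with the pulse and 6.78, 6.99 and 6.84 in the control, and on day 3 they read 7.18, 7.27 and 7.04 with the pulse and 7.21, 7.58 and 7.27 in the control. The groups lie apart on day 5 and overlap on day 3. Groups of 3 arrays are too small to be searched for single outlying arrays.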

How the results depend on the processing

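Of 77 member calls in the 14 comparisons, 41 were kept in every alternative that tested them, apart from the 1.5-fold minimum. The filter on dim clusters removed some members, Postn and Loxl1 among them, so calls of these were not tested in it. Leaving out at least 1 array lost 34 calls, and no called member value reversed. The withdrawal counts after 3 and 5 days moved by over 1.5 times only with the 1.5-fold minimum, to 6 from 15 after 3 days. That minimum gave 0 after 1 day, 3 in each step, 0 in the pulses of day 1 and day 5, 0, 0 and 2 for the controls against withdrawal on days 1, 3 and 5, and 0 for the day 5 against day 3 pulse difference. With array weights the counts were 8 for day 1 of withdrawal, 8, 1 and 15 for the pulses, 7, 2 and 10 for the controls, and 2, 7 and 11 for the differences between pulses (day 3 minus 1, 5 minus 1, 5 minus 3). For the day 1 pulse, trend and robust eBayes and the filter on dim clusters gave 4, leaving out the 4 widest arrays (added after seeing the data) also gave 4, and median centring, quantile normalization, testing all clusters and fitting only the groups compared each gave 1. For the day 5 pulse, quantile normalization and the dim filter gave 3, the interquartile range as a covariate 2, and fitting only the groups compared or leaving out the 4 widest arrays 0. For the controls, median centring gave 0 on day 1, quantile normalization and the covariate 2 on day 3, and fitting only the groups compared 0, 0 and 1 on days 1, 3 and 5. The day 3 minus day 1 pulse difference gave 1 with trend and robust eBayes, quantile normalization, the dim filter and the covariate. The day 5 minus day 1 difference gave 1 with quantile normalization and the covariate. The day 5 minus day 3 difference gave 2 with the covariate and 0 with median centring, fitting only the groups compared or leaving out the 4 widest arrays. The cause of these moves was not tested. Over the fits without 1 array, counts ranged from 2 to 4 after 1 day, 11 to 14 after 3 days, 17 to 19 after 5 days, 9 to 14 and 4 to 7 in the steps, 1 to 1, 0 to 0 and 1 to 11 in the pulses, 0 to 3, 0 to 1 and 2 to 7 in the controls, and 0 to 0, 0 to 1 and 0 to 1 in the pulse differences.

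The values gave no clear sign that the replicate numbers pair the arrays. In 0 of 11 comparisons did all same-numbered pairs correlate above 0.1 (range -0.72 to 0.40), and 24 of 66 arrays correlated best with their own number. With 3 arrays per group these correlations cannot exclude a shared culture or batch. With the replicate block the counts were 4, 15 and 18 for withdrawal, 2, 0 and 5 for the pulses, and 5, 1 and 6 for the controls, and the day 5 minus day 3 pulse difference went from 1 to 0. No member has several clusters, so taking the dimmer cluster gave no value.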
